A study of Mus musculus and Homo sapiens with 41 samples.

Results

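Glypicans and syndecans are the heparan sulfate proteoglycans that cells carry on their surface, and Ext1 and Ext2 encode the enzymes that build their sugar chains. Described here are 9 of these genes (Gpc1, Gpc4, Gpc6, Sdc1, Sdc2, Sdc3, Sdc4, Ext1 and Ext2), out of 53756 rows of the table for mouse granulocyte-monocyte progenitors (GMPs) and 13238 of the table for the 416b cell line. Gpc1 was selected on its normalized counts in GMPs, which were higher in mutant than in WT libraries in an earlier reading of the same data, so its difference between genotypes is a description and has no p-value. The other 8 were taken because they belong to the same families. All 9 were matched by symbol in the GMP table, and 4 (Gpc1, Sdc1, Sdc4 and Ext2) were listed in the 416b table.

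The study asked how the transcription factor PLZF, encoded by Zbtb16, acts on chromatin in myeloid progenitors, and RNA-seq was used to see whether gene expression differed as well. Loss of PLZF was examined in C57BL/6 mice, wild type (WT) or Zbtb16 lu/lu, with 2 libraries for each genotype. Bone marrow of these mice, which carry Cd45-2, had been transplanted into lethally irradiated Cd45-1 recipients of the same strain, and GMPs were sorted 16 weeks later as lineage-negative, Cd45+, c-Kit+, Sca-1-, Cd34+ and Fcγ receptor+ cells. Both genotypes therefore went through irradiated hosts, and the sources used here give neither the age of the animals nor how many were pooled in a library. Gain of PLZF was examined in 416b, a Cd34+ murine myeloid cell line. It received a lentivirus with PLZF-Flag and GFP or an Empty vector with Flag and GFP, was sorted for GFP after 48 h, and was sequenced once, with 1 library for each condition.

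A glypican is held in the outer membrane leaflet by a lipid (glycosylphosphatidylinositol) anchor, whereas a syndecan spans the membrane and has a short cytoplasmic tail. Both carry long heparan sulfate chains that bind growth factors, chemokines and morphogens and present them to receptors. The chain starts from a tetrasaccharide linker, is polymerised in the Golgi by the complex of Ext1 and Ext2, is then sulfated, and is later cleaved by heparanase or taken apart sugar by sugar in the lysosome. In bone marrow, heparan sulfate is known for holding chemokines and cytokines in the niche of blood progenitors.

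The GMP libraries summed to between 38562940 and 40130730 normalized counts, that is, reads per gene divided by the DESeq2 size factor of the library. The targeted gene was checked first. Zbtb16 stood at 705.0 and 828.5 normalized counts in WT and at 269.0 and 369.1 in Zbtb16 lu/lu, a mean ratio of 0.42, with no overlap between the genotypes. The markers of the sorted population were present in all 4 libraries, with Mpo, the myeloperoxidase of primary granules, between 477326 and 552003. Markers of other cells were not constant. The summed normalized counts of 12 mature neutrophil genes were 14409 and 6598 in WT and 21666 and 10879 in Zbtb16 lu/lu, and both mutant libraries exceeded both WT libraries for 8 of these genes (against 21.7% of all tested genes), among them the secondary granule gene Ltf (56.7 and 11.6 against 846.0 and 305.3). The 9 monocyte and macrophage genes summed to 13415 and 17088 in WT and to 20317 and 19515 in Zbtb16 lu/lu. The 9 erythroid and megakaryocyte genes summed to 5238 in WT library 2 and to between 1946 and 3450 in the other libraries. The 7 mast cell and basophil genes summed to 10321 and 9981 in WT and to 9196 and 7142 in Zbtb16 lu/lu, and 3 of the 6 tested were lower in both mutant libraries (22.1% of all tested genes). The 8 T and NK cell genes, of which Nkg7 gave nearly all counts, summed to 11731 and 11224 against 11091 and 11669. In bulk RNA of sorted cells, more cells of a type and more RNA per cell cannot be told apart.

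Gpc1 was the most abundant glypican of GMPs in every library. To compare genes with each other, normalized counts were divided by the length of all exons of the gene in kilobases. Per kilobase, Gpc1 stood at 1775 and 1887 in the WT libraries and at 2976 and 2862 in the Zbtb16 lu/lu libraries. It made up 93.8% and 93.6% of the summed per-kilobase level of all 6 glypicans in WT, and 96.2% and 94.9% in Zbtb16 lu/lu. Among all genes above 0 in a library, its per-kilobase level lay at percentile 94.3 to 96.7.

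The glypicans next in order were far below. Gpc3, a glypican best known from growth control in the embryo, had 64.1 normalized counts per kilobase in WT on average, and Gpc2, best known from the nervous system, had 55.4. The WT mean of Gpc1 per kilobase was 33.0 times that of Gpc2. The ranges of Gpc2 and Gpc3 over the 4 libraries overlapped (50.3 to 85.2 and 54.3 to 73.9 per kilobase), so their order was within the spread. Gpc4, Gpc6 and Gpc5 followed, with WT means of 2.56, 0.99 and 0.22 per kilobase.

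**Figure D1:**
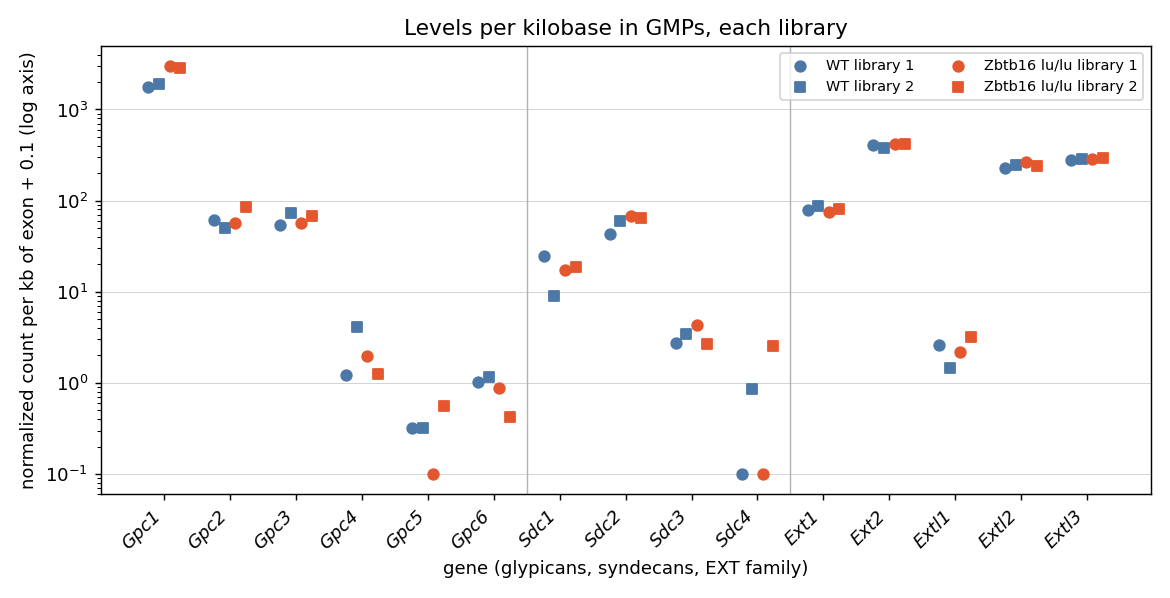
Normalized counts per kilobase of exon, plus 0.1, on a log axis, for 6 glypicans, 4 syndecans and 5 genes of the EXT family; each point is 1 GMP library, blue for WT and red for Zbtb16 lu/lu. Gpc1 lies between 1775 and 2976 in the 4 libraries, above every other gene shown, and Sdc2 is the highest syndecan in each library.

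Gpc1 lies on chromosome 1 of mm10 (92831645 to 92860779, plus strand, 5.16 kb of exons). Its normalized counts were 9156 and 9735 in WT and 15355 and 14767 in Zbtb16 lu/lu. Both mutant libraries were higher than both WT libraries, as was the case for 21.7% of all 20531 tested genes. The means were 9446 ± 409 and 15061 ± 416 (SD, n = 2 each), a ratio of 1.59 and a difference of 0.67 on the log2(normalized count + 1) scale. The 4 possible pairs of a mutant and a WT library gave log2 differences from 0.60 to 0.75, against an SD of 0.0625 between the WT libraries and 0.0398 between the mutant libraries. The WT and mutant libraries whose column labels carry the same date-like number differed by 0.69. As a share of all normalized counts of the library, Gpc1 took 0.0229% and 0.0252% in WT and 0.0383% and 0.0382% in Zbtb16 lu/lu. Among the 7444 tested genes with a mean of at least 1000, the difference of Gpc1 ranked 86 from the top.

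Markers of other cells differed between the same libraries. Of the 12 mature neutrophil genes, 8 were higher in both mutant libraries, as Gpc1 was, although their sum, mostly S100a8 and S100a9, overlapped between the genotypes. The monocyte and macrophage sum was higher in both mutant libraries too. Whether either population contributed to the difference of Gpc1 was not tested. The 11 genes of stroma and endothelium, tissues rich in glypicans, summed to 2189 and 3701 in WT and to 4424 and 4028 in Zbtb16 lu/lu, so this sum was higher in both mutant libraries too. Vcam1 (1539 and 2747 against 3381 and 3023) and Pdgfrb (576.7 and 725.3 against 937.4 and 918.1) made up most of it. Of the other genes of the list, Tek had 36.8 and 124.4 against 51.2 and 40.1, Kdr did not exceed 45.3, and Lepr, Pdgfra and Cdh5 did not exceed 5.14 in any library. The sort kept lineage-negative, Cd45+ and c-Kit+ cells. The part of stromal and endothelial cells in the difference of Gpc1 was not tested.

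Of the genes that the annotation places over Gpc1, Ankmy1 on the other strand was the only one above 79.1 normalized counts. It shares 977 of the 5159 exon bases of Gpc1 (18.9%). Its normalized counts were 917.8 and 920.1 in WT and 1278 and 1404 in Zbtb16 lu/lu and thus higher in both mutant libraries, although far below those of Gpc1. The GMP kit keeps the strand, but whether the counting used it is not given in the sources used here, and reads of the 2 genes over the shared bases may not be told apart.

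Unc93b1 and Matk were the genes whose values over the 4 GMP libraries were most like those of Gpc1, by the distance between log2 values centred on each gene's mean taken over 7443 genes with means from 1000 upwards. Unc93b1, which escorts nucleic acid-sensing Toll-like receptors, had 5792 and 5941 normalized counts in WT and 9347 and 8892 in Zbtb16 lu/lu (distance 0.0536). Matk, a kinase of the Csk family, had 1699 and 1725 against 2908 and 2719 (distance 0.0693). A likeness over 4 libraries of 2 genotypes is mostly a likeness in that one difference.

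Gpc4 and Gpc6 were at the limit of detection. Gpc4 (chromosome X, 52053021 to 52165252, minus strand) had 2.98 and 10.6 normalized counts in WT and 5.02 and 3.08 in Zbtb16 lu/lu, and the genotypes overlapped. Gpc6 (chromosome 14, 116925315 to 117976544, plus strand) had 5.97 and 6.75 in WT and 5.02 and 2.06 in Zbtb16 lu/lu. Both mutant values of Gpc6 were below both WT values, which also held for 22.1% of the tested genes, but a normalized count was worth about 1 read here, and Gpc6 did not reach the minimum of 10 in 2 libraries that the test required. Neither did Gpc4 or Sdc4, so 6 of the 9 genes were tested.

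Among syndecans, Sdc2 was the most abundant in every library. Sdc2, a syndecan of mesenchymal and endothelial cells that myeloid cells also express, lies on chromosome 15 (32920723 to 33034935, plus strand). It had 153.1 and 212.2 normalized counts in WT and 240.9 and 228.2 in Zbtb16 lu/lu, and it made up from 61.3% to 82.2% of the summed per-kilobase level of the 4 syndecans. Both mutant libraries were higher than both WT libraries. The difference was 0.38 (SE 0.24) on the log2 scale against an SD of 0.331 between the WT libraries and 0.0547 between the mutant libraries. The adjusted p was 0.607 in limma over all tested genes, so the difference did not pass the threshold. It was 0.14 (adjusted p = 0.696) without WT library 1 and 0.61 (adjusted p = 0.0604) without WT library 2. Per kilobase, the WT mean of Gpc1 was 35.4 times that of Sdc2. All 4 syndecans summed to 72.0 per kilobase in WT and 89.0 in Zbtb16 lu/lu, against 1954 and 3055 for all 6 glypicans.

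Sdc1 (Cd138, chromosome 12, 8771323 to 8793715, plus strand) is the syndecan of epithelia and plasma cells. It had 94.5 and 33.8 normalized counts in WT and 65.2 and 70.9 in Zbtb16 lu/lu. The WT libraries were the highest and the lowest of the 4, and the difference of 0.26 (SE 0.48) had an adjusted p of 0.873 in limma. Its sign rested on a single library, since it was 0.99 without WT library 1 and -0.47 without WT library 2. The low value was in WT library 2, which also had the highest erythroid and megakaryocyte sum, and any link between them was not tested. The 8 genes of B and plasma cells summed to 5583 and 5927 in WT and to 7539 and 7126 in Zbtb16 lu/lu, nearly all of it Ighm (4457 to 6246) and Cd79b (1055 to 1270). Of the plasma cell genes in the list, Mzb1 did not exceed 6.96 and Jchain 11 normalized counts in any library. Lineage depletion included B220, and the gate was c-Kit+ and Cd34+. The part of B and plasma cells in the values of Sdc1 was not tested.

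Sdc3 (chromosome 4, 130792537 to 130826319, plus strand), known from nerve and muscle, had 15.9 and 20.3 normalized counts in WT and 25.1 and 15.4 in Zbtb16 lu/lu. The mutant libraries were the highest and the lowest, and the difference was 0.13 (SE 0.55, adjusted p = 0.951 in limma). Sdc4, a syndecan of focal adhesions on chromosome 2 (164424247 to 164443887, minus strand), had 0 and 1.93 in WT and 0 and 6.17 in Zbtb16 lu/lu and was not tested. At these levels neither a difference nor its absence was detectable.

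Of the tested genes, those of the polymerase had the smallest differences with all 4 libraries. Without WT library 1, the difference of Sdc3 (-0.04) was smaller in size than that of Ext1 (-0.16). Ext1 (chromosome 15, 53064038 to 53346159, minus strand) had 633.4 and 702.1 normalized counts in WT and 599.1 and 661.1 in Zbtb16 lu/lu, with overlapping genotypes and a difference of -0.08 (SE 0.16, adjusted p = 0.876 in limma). Ext2 (chromosome 2, 93661028 to 93822568, minus strand) had 2951 and 2753 in WT and 3073 and 3033 in Zbtb16 lu/lu. Both mutant values of Ext2 were above both WT values, by 0.10 on the log2 scale (SE 0.12), and the adjusted p was 0.778. Although the proteins of both genes work as a complex, Ext2 RNA per kilobase exceeded Ext1 RNA by 5.14 and 4.32 times in the WT libraries and by 5.65 and 5.06 times in the mutant libraries.

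The related Extl genes, which encode glycosyltransferases for the start and the end of the chain, did not pass the threshold either. Extl3, the initiator of heparan sulfate, had 1687 and 1735 normalized counts in WT and 1718 and 1780 in Zbtb16 lu/lu, with overlapping genotypes and a difference of 0.03 (SE 0.12). Extl2 had 790.5 and 838.1 against 925.3 and 826.6. Extl1 did not exceed 13.4 in any library.

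In all, no gene passed the threshold of 0.08 on the adjusted p in GMPs in limma (0% of 20531, with a smallest adjusted p of 0.299), although 2028 genes had an unadjusted p under 0.05. The paper does report up- and downregulated genes in the mutant GMPs, from its own test, which was not repeated here. Of the 5 tested genes other than Gpc1, none passed, Sdc2 and Ext2 were higher in both mutant libraries, and none was lower in both. Over all tested genes the shares were 21.7% and 22.1%, and 2 and 0 of 5 genes are too few to be set apart from them. Leaving out WT library 1 put Sdc1 past the threshold and leaving out WT library 2 put Sdc2 past it. Over all genes, 4662 and 2749 passed then. With 1 library left in a group, that library was assumed to vary like the pair of the other genotype.

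**Figure D2:**
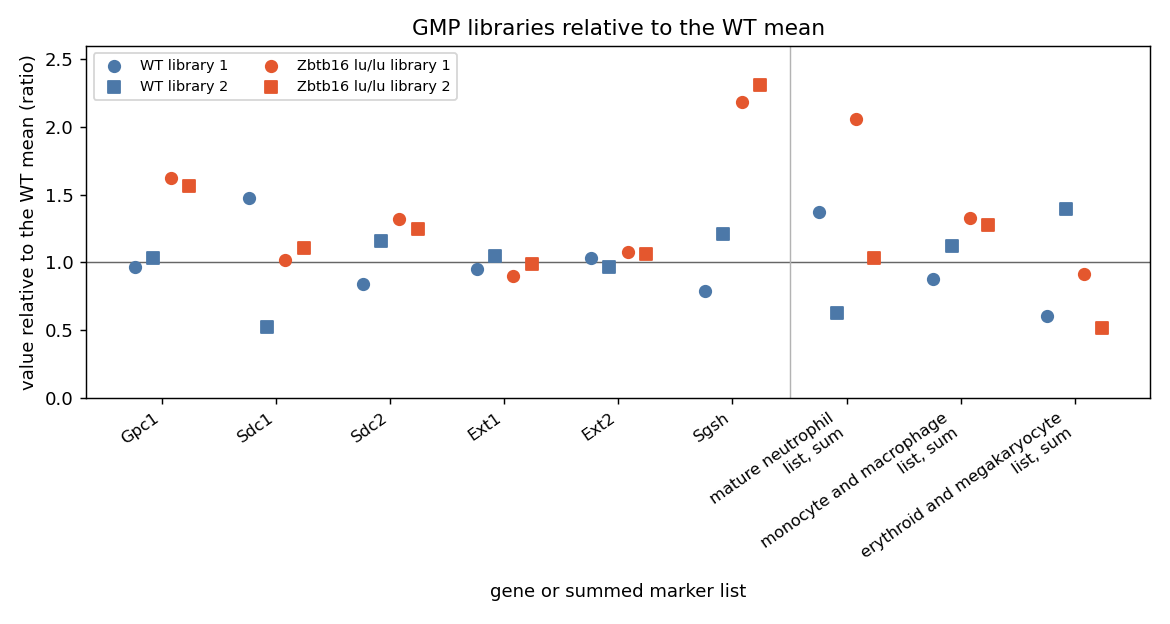
Normalized count of each GMP library divided by the mean of both WT libraries, for Gpc1, Sdc1, Sdc2, Ext1, Ext2 and Sgsh and for the summed counts of 3 marker lists; the line at 1 is the WT mean. The mutant libraries of Gpc1 lie together above the WT libraries, those of Ext1 and Ext2 lie near 1, and the mature neutrophil sum spreads within both genotypes.

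The genes of the whole pathway were then described from 8 lists with 89 genes, of which 69 were tested. None passed the threshold. Without Gpc1, which was selected on this contrast, both mutant libraries were above both WT libraries for 26 of 68 genes (38.2%, against 21.7% of all tested genes) and below them for 9 (13.2%, against 22.1%). Their median difference was 0.10, against -0.01 over all tested genes. Of the markers, 8 of 12 mature neutrophil genes and 7 of 8 tested monocyte and macrophage genes were higher in both mutant libraries. For mast cells and basophils, 3 of 6 tested genes were lower in both. The part of such cells in the pathway values was not tested.

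Among core proteins, 12 of 16 were tested, and Gpc1, which was selected on this contrast, Sdc2 and agrin (Agrn) were higher in both mutant libraries. That is 3 of 12, near the 21.7% of all tested genes. Agrin, a secreted heparan sulfate proteoglycan of basement membranes and of the marrow niche, had 388.8 and 350.1 normalized counts in WT and 501.8 and 581.9 in Zbtb16 lu/lu (0.55, SE 0.18, adjusted p = 0.428 in limma). The most abundant proteoglycan RNA was serglycin (Srgn), which carries the glycosaminoglycans of granules inside the cell. Its level was 15774 per kilobase in WT and 16768 in Zbtb16 lu/lu. Cd44, the hyaluronan receptor that can carry chondroitin or heparan sulfate, had 1226 and 1149 per kilobase, less than Gpc1 in both genotypes. The groups of Srgn and of Cd44 overlapped. These levels were looked up after the values were seen.

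For the tetrasaccharide linker, all 7 genes were tested, and 3 were higher and 2 lower in both mutant libraries (21.7% and 22.1% of all tested genes). Xylt2, a xylosyltransferase that starts the linker, had 416.6 and 455.2 against 503.8 and 622.0 normalized counts (0.36, adjusted p = 0.534 in limma), and B3gat3, which completes it, had 1079 and 732.0 against 1153 and 1132. For chain polymerisation, all 5 genes were tested, and Ext2 alone had genotypes that did not overlap.

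For sulfation and epimerisation of the chain, 7 of 16 genes were tested and 3 were higher in both mutant libraries (21.7% of all tested genes). Hs3st3b1, a 3-O-sulfotransferase, had the difference of largest size, -0.83, but it came from 1 library, at 122.3 and 43.4 in WT and 37.1 and 44.2 in Zbtb16 lu/lu. The rarely detected 6-O-sulfotransferase Hs6st2 had 7.96 and 4.82 against 13.0 and 10.3. Ndst1, the N-deacetylase and N-sulfotransferase that opens the way for the other modifications, had 1757 and 1850 against 2363 and 2376 (0.39, SE 0.12, adjusted p = 0.422 in limma), and was named after its values were seen.

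Genes for sugar and sulfate donors did not lean one way. All 8 were tested, and 2 were higher and 3 lower in both mutant libraries (21.7% and 22.1% of all tested genes). Uxs1, which makes the xylose donor, had 1050 and 1258 against 1026 and 886.2 (-0.27, adjusted p = 0.579 in limma). Slc26a2, the sulfate transporter, had 1644 and 1758 against 1456 and 1459.

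Of the genes that edit or degrade heparan sulfate, 10 of 12 were tested, 8 were higher in both mutant libraries (21.7% of all tested genes were) and 1, Gusb, was lower (22.1% were). The median difference of this list was 0.36, and between 0.26 and 0.41 when each library was left out in turn. Sgsh, the lysosomal sulfamidase whose loss causes Sanfilippo syndrome type A, had the largest difference. It had 282.4 and 433.0 normalized counts in WT and 780.8 and 825.5 in Zbtb16 lu/lu, a ratio of 2.25 and a difference of 1.20 (SE 0.22, adjusted p = 0.299 in limma). Arsg, a lysosomal sulfatase of heparan sulfate, had 85.5 and 142.7 against 225.8 and 213.8 (0.99, SE 0.29, adjusted p = 0.422). The genotypes did not overlap for either gene, and neither passed the threshold with all 4 libraries. Sgsh passed it without WT library 1 (0.89) and without WT library 2 (1.5), when 4662 and 2749 genes did. The monocyte and macrophage sum was higher in the same libraries. The part of such cells in these differences was not tested.

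Sgsh lies on chromosome 11 (119343425 to 119355536, minus strand), and 955 of its exon bases (21.6%) are shared with Card14 on the other strand. Card14 had 73.6 and 87.8 normalized counts in WT and 205.7 and 187.1 in Zbtb16 lu/lu, so it was also higher in both mutant libraries. Reads of Sgsh and Card14 over the shared bases may not be told apart.

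Among sheddases and cytoplasmic partners, 8 of 10 genes were tested, and 1 was higher and 3 were lower in both mutant libraries (21.7% and 22.1% of all tested genes). The higher one was Mmp9, a gelatinase that sheds syndecans and is stored in neutrophil granules, at 15.9 and 0 normalized counts in WT and 76.3 and 65.8 in Zbtb16 lu/lu. Mmp9 is also in the mature neutrophil list, whose median difference was 1.82, and 1.17 without WT library 2. Mmp14 had 5.97 and 19.3 against 22.1 and 14.4. For chondroitin sulfate, the other chain that syndecans can carry, 12 of 15 genes were tested, 6 were higher in both mutant libraries and none was lower, against 21.7% and 22.1% of all tested genes. Chpf2, a chondroitin polymerising factor, had 2690 and 2013 against 3262 and 3087 (0.45, SE 0.15, adjusted p = 0.445 in limma), and Ust, a 2-O-sulfotransferase, had 16.9 and 11.6 against 17.1 and 20.6.

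**Figure D3:**
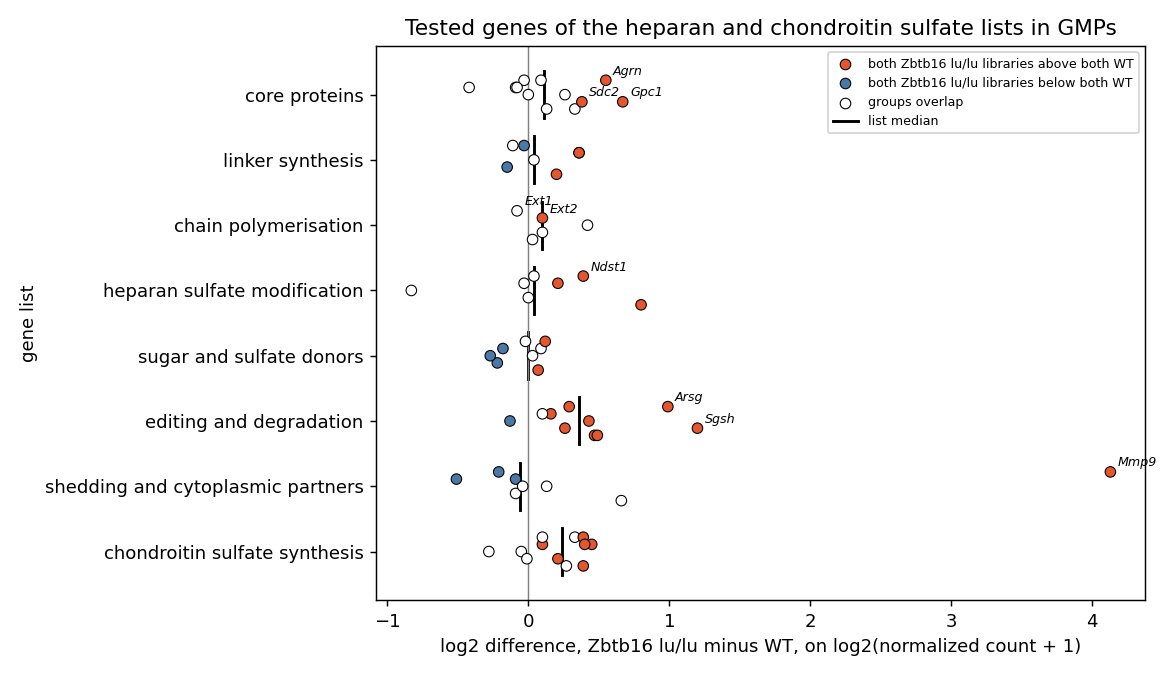
Log2 difference of Zbtb16 lu/lu minus WT in GMPs for the 69 tested genes of 8 lists; red points have both mutant libraries above both WT libraries, blue points have both below, open points overlap, and bars are list medians. The editing and degradation list has its median at 0.36 with Sgsh at 1.20 and Arsg at 0.99, and Mmp9 lies at 4.13.

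Gain of PLZF in 416b cells gave values that had no part in choosing Gpc1. The 416b table lists genes above 0 in both libraries, and 5 of the 9 genes (Gpc4, Gpc6, Sdc2, Sdc3 and Ext1) are not among its 13238 rows. The reads on the listed genes, recovered from the normalized counts, came to 54529788 for Empty vector and 19995794 for PLZF-Flag. Ratios are log2 of PLZF-Flag over Empty vector after adding 1, with 95% Clopper-Pearson intervals from the reads. They take in counting error alone, and a single library for each condition leaves no replicate check. Zbtb16 itself was at 382.5 normalized counts in Empty vector and 2541 in PLZF-Flag, or 632 and 1538 reads.

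Gpc1 was barely detected in 416b cells. It was covered by 40 reads (Empty vector) and 21 reads (PLZF-Flag), that is, 24.2 and 34.7 normalized counts. The log2 ratio was 0.50 with an interval from -0.32 to 1.32, which includes 0. The interval leaves room for a ratio above 2-fold higher but not for one below -0.32 by counting error alone. Its per-kilobase level lay at percentile 11.2 and 13.3 of the listed genes, against 94.3 to 96.7 of the genes above 0 in GMPs. The tables were normalized separately, the libraries were made with different kits, and 416b cells differ from GMPs in other genes too. The line expressed Kit (6434 normalized counts in Empty vector) and Cd34 (11059), but Mpo was at 12.1.

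Ext2 was well covered in 416b cells, by 7026 reads for Empty vector and 2637 for PLZF-Flag. Its normalized counts were 4252 and 4357, and the interval of its log2 ratio, from -0.03 to 0.10, lay well inside 2-fold. Sdc4 had 11 and 2 reads, a ratio of -0.83 with an interval from -4.23 to 1.19. Sdc1 had 2 and 1 reads and no ratio is given. Extl2 (0.00) and Extl3 (0.07) had intervals that included 0, from -0.14 to 0.15 and from -0.04 to 0.17.

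Of 11836 genes of the 416b table that averaged 10 or more normalized counts, 0.498% were at least 2-fold higher and 0.912% at least 2-fold lower in PLZF-Flag. Of the 9 genes, only Gpc1 and Ext2 reached that mean, and neither passed 2-fold. Of 47 pathway genes at that mean, 0 were higher by 2-fold and 1, Sgsh, was lower. Sgsh had 720.8 normalized counts in Empty vector and 241.3 in PLZF-Flag (1191 and 146 reads), a log2 ratio of -1.58 with an interval from -1.84 to -1.33. Sgsh was thus lower in the library with added PLZF and higher in both GMP libraries with mutant Zbtb16. Card14, which shares exon bases with it, moved the same way in 416b cells, with 273 and 28 reads (ratio -1.81, interval from -2.45 to -1.27). Arsg, at -0.04 with an interval from -0.43 to 0.33, was not lower beyond counting error. Agrin was at 1166 and 1421 normalized counts (0.28, interval from 0.17 to 0.40).

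**Figure D4:**
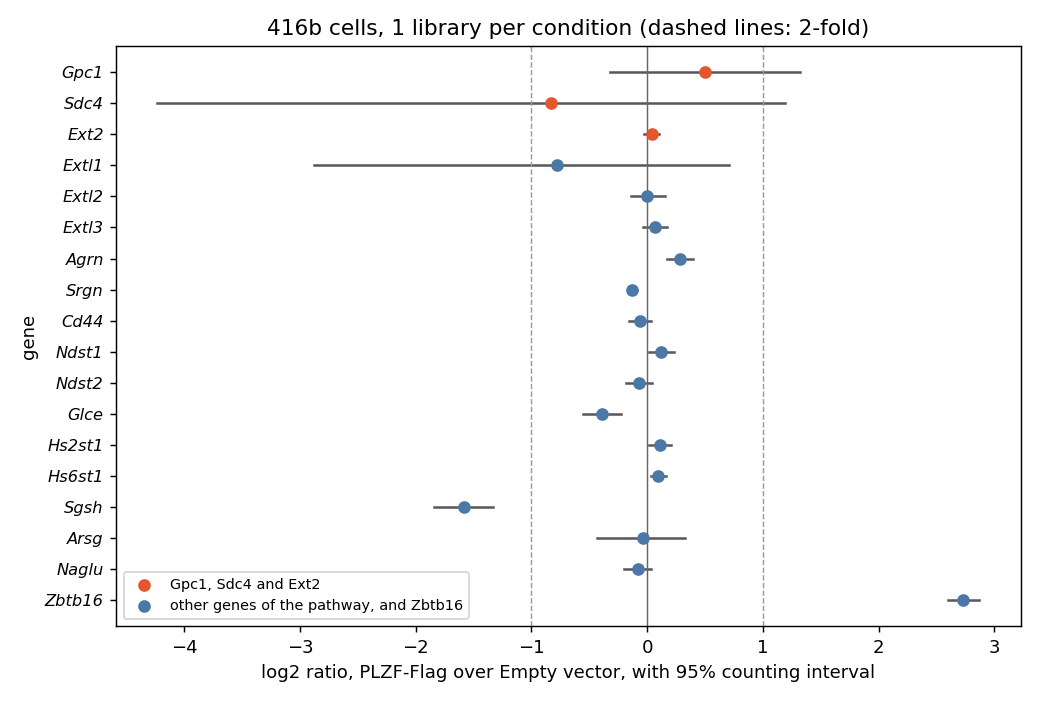
Log2 ratio of PLZF-Flag over Empty vector in 416b cells for genes of the pathway and Zbtb16, with 95% counting intervals as lines; red points are Gpc1, Sdc4 and Ext2, and the dashed lines mark 2-fold. Sgsh at -1.58 lies beyond 2-fold, Ext2 at 0.04 has a narrow interval, and the intervals of Gpc1 and Sdc4 include 0.

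The genes most like Gpc1 in GMPs did not share one pattern in 416b cells. Matk had 24 and 26 reads, a ratio of 1.5 with an interval from 0.71 to 2.43, and Unc93b1 was at -0.13 (-0.65 to 0.36).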

How the data were processed

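The RNA-seq tables of GMPs (2 libraries for each genotype) and of 416b cells (1 library for each condition) were used. Chromatin samples (ChIP-seq, ATAC-seq) were not used here. GMP libraries came from a stranded total RNA kit (TruSeq) after removal of ribosomal RNA, and 416b libraries with SMART-Seq v3 Ultra Low Input. Alignment to mm10 was done by the authors with subread-align 1.5.0 and counting with featureCounts 1.5.0, and each library was scaled by its DESeq2 size factor. The deposited signal values are therefore normalized counts. The strand setting and the annotation of the counting are not given in the sources used here. The GEO labels have 1 record for each GMP genotype and the table has 2 columns. The supplementary methods state 3 RNA extractions, so the columns were taken as separate libraries. The log2 values that the authors deposited, their fold changes and p-values were not used.

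In each GMP column 100% of values were whole multiples of the smallest value within 0.05 of a multiple (0.994 and 0.964 in WT, 1.004 and 1.028 in Zbtb16 lu/lu). The columns hold normalized and not raw counts, and no count test was run. Instead limma-trend 3.58.1 (R 4.3.3) was run on log2(normalized count + 1) over genes with at least 10 in at least 2 libraries, and p-values were adjusted by Benjamini-Hochberg over all of them. The threshold was 0.08, the FDR of the study. The p-values rest on the spread between the 2 libraries within each genotype, pooled over both and drawn towards a trend over all tested genes. For 416b cells, 83.2% and 85.3% of values were whole reads within 0.05, and the others were rounded. Exon lengths and positions are from GENCODE M21. The fit was tried on simulated counts with the same dispersion for all genes, which cannot show how it performs on these libraries. The software was also Python 3.11.15, pandas 2.3.3, numpy 2.4.6 and scipy 1.17.1.

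The genes and lists were chosen with earlier results of these data known. Besides the 9 genes, the text names their relatives, up to 2 genes of each list with the largest differences in GMPs, Zbtb16, and the 3 genes most like Gpc1, of which 1 is not reported here. Other genes were named after their values were seen. Alternatives were other filters, pseudocounts, scalings and thresholds, no intensity trend, no division by length, leaving out each library, and the pair of libraries with a shared column label.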

Additional observations from a re-analysis of the deposited data

How the results depend on the processing

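The difference of Gpc1 in GMPs, on which it was selected, was 0.67. The filters and the intensity trend could not change it, and other pseudocounts and equal library totals left it at 0.67. It lay between 0.63 and 0.72 when each library was left out, and was 0.69 in the pair with the shared column label. The signs of Sdc1 and Sdc3 depended on single libraries, and that of Ext1 (-0.16 to -0.01 when each library was left out) did not. In the pair of libraries with the shared column label, the differences of Sdc1, Sdc3 and Ext1 were -0.41, -0.04 and 0.06. Leaving out each library gave from -0.47 to 0.99 for Sdc1 and from -0.21 to 0.46 for Sdc3. Sdc3 reversed to -0.04 without WT library 1 and to -0.21 without Zbtb16 lu/lu library 1. Leaving out each library put from 1 to 4662 genes past the threshold in place of 0: 4662 without WT library 1, 2749 without WT library 2, 1 without mutant library 1 and 64 without mutant library 2. Of the 5 tested genes other than Gpc1, it put from 0 to 1 past it: Sdc1 (0.99, adjusted p = 0.0638 in limma) without WT library 1 and Sdc2 (0.61, adjusted p = 0.0604) without WT library 2, but Sdc2 was 0.14 (adjusted p = 0.696) without WT library 1. Sgsh passed it without WT library 1 (0.89, adjusted p = 4.02e-07) and without WT library 2 (1.5, adjusted p = 2.89e-18), with adjusted p from 0.209 to 0.824 under the other alternatives. The cause was not tested, and the lone library was assumed to vary like the pair of the other genotype. The other alternatives over all genes left the count at 0. In 416b cells, 167 genes were past 2-fold, 550 with no filter and 15 at a mean of at least 100, where fewer genes were compared. The mean WT percentile of Gpc1 was 94.5 per kilobase and 97.8 without division by length. No paired analysis was possible because the genotypes share 1 column label and a block needs at least 2. With 2 libraries for each genotype and 40 and 21 reads of Gpc1 in 416b cells, small differences of the low genes were out of reach.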
